A study of Homo sapiens with 6 samples.

Results

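In T24 cells, a line established from a human bladder carcinoma, 10 genes of activin, BMP and TGF-beta signalling were followed, of 20442 in the deposited count table. They were taken by symbol and comprise the antagonists FST and FSTL3, the activin subunits INHBA and INHBB, the ligands GDF15, TGFB1, TGFB2 and BMP4, the intracellular inhibitor SMAD7 and the matrix protein gene TGFBI. Attached cells had been exposed for 24 h to a small interfering RNA against KNSTRN, a gene of the mitotic spindle (si-KNSTRN), or to the control siRNA called si-NC. There were 3 libraries per group, which the series' text calls biological replicates. All 6 libraries came from the 1 line T24, and no source used here gives the siRNA sequences. The genes were selected on their read counts in these libraries and their differences between si-KNSTRN and si-NC, so that their values are a description and carry no p-value.

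Ligands of the TGF-beta superfamily are secreted dimers that bring together type I and type II receptor kinases, which then phosphorylate SMAD proteins. Activins and TGF-beta act mainly through SMAD2 and SMAD3, and BMPs through SMAD1, SMAD5 and SMAD9. Their action is limited outside the cell by binding proteins and latency, and inside it by inhibitory SMADs. In epithelium TGF-beta is known for arresting growth and for the change to a mesenchymal form.

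Values of single libraries are given in the order of libraries 1, 2 and 3. Totals were 19717513, 17870543 and 18133055 reads for si-KNSTRN, against 20596074, 16386799 and 18305894 reads for si-NC. Levels are CPM, read counts scaled to TMM-adjusted library size, and 3 reads, the limit behind a count of 0, amount to 0.148 to 0.187 CPM by counting error only. KNSTRN had 269, 245 and 226 reads in the si-KNSTRN libraries, against 777, 663 and 762 in the si-NC libraries, and fell by 1.62 on the log2 scale (SE 0.07, edgeR adjusted p = 1.7e-11). The epithelial keratin genes KRT7, KRT8 and KRT18 averaged 1186, 1081 and 901 CPM in si-KNSTRN cells, and 1013, 1080 and 843 CPM in si-NC cells, and of these KRT7 was called higher. The keratin gene KRT19, of the same marker list, averaged only 0.801 CPM in si-KNSTRN cells and 1.03 CPM in si-NC cells. CDH1, which encodes the epithelial cadherin, had no read in any library, and EPCAM stayed under 1 CPM on average in both groups. The 6 urothelial markers summed to 44.3 to 49.2 CPM in si-KNSTRN libraries and 28.7 to 32.8 CPM in si-NC libraries, with UPK3A at 0 throughout. Most of that sum was PPARG, called higher with 44.8 CPM in si-KNSTRN cells and 28.7 CPM in si-NC cells, while UPK1A was called lower with 0.175 CPM in si-KNSTRN cells and 0.832 CPM in si-NC cells. The 7 fibroblast markers summed to 10.9 to 12.7 CPM in si-KNSTRN libraries and 14.5 to 16.3 CPM in si-NC libraries, with COL1A2 at 0 throughout. The 6 immune markers summed to 45.7 to 48.3 CPM in si-KNSTRN libraries and 30.8 to 36.2 CPM in si-NC libraries, nearly all of it CD68, while CD3E was at 0. The 5 endothelial markers summed to 1.08 to 1.72 CPM in si-KNSTRN libraries and 0.549 to 0.837 CPM in si-NC libraries. The part of these markers in the results was not tested.

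The windows around the annotated starts of FST, INHBA and GDF15 are shown because these 3 genes had the widest differences of the 10. They run from 250 bases before to 50 bases after the start, are written 5′ to 3′ on the gene's strand, and come from RefSeq (GRCh38.p14). Their positions are chr5:53480379-53480678 on the plus strand for FST, chr7:41703041-41703340 on the minus strand for INHBA and chr19:18385908-18386207 on the plus strand for GDF15. The windows of FST and GDF15 span the first base of the annotated gene. That of INHBA lies inside the annotated gene (41685114 to 41705406), away from its outer 5′ end, so the 3 windows are not fully alike. Capitals mark an AP-1 match (TGANTCA) in FST and a SMAD box match (CAGACA) in INHBA, both searched on both strands.
FST: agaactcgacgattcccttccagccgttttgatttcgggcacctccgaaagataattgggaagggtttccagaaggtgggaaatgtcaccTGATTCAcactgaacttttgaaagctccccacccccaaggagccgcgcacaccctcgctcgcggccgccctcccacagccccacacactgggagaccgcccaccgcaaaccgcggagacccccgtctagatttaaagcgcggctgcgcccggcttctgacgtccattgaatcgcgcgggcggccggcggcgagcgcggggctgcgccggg
INHBA: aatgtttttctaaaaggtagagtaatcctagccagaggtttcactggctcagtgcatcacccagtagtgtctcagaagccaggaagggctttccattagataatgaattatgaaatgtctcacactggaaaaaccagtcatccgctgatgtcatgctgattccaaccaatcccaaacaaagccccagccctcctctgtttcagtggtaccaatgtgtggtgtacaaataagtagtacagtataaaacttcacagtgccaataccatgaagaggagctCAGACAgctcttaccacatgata
GDF15: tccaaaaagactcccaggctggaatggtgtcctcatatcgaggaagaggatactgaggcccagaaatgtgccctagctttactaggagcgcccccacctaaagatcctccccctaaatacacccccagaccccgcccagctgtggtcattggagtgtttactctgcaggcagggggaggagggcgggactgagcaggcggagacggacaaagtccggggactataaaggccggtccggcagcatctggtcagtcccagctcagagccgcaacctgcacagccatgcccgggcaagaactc
The FST match begins at position -160 relative to the start, and 7.71% of all 35116 promoter windows of this length hold such a match. The INHBA match begins at position 28 after the start, and 16.9% of all windows hold the SMAD box. The GDF15 window holds matches to the loose NF-kB pattern alone (2 matches, not in capitals), which 58.7% of all windows share, and the FST window holds 4 of these. The cyclic AMP element TGACGTCA (1.85% of all windows), the ATF4 with C/EBP composite TGATGCAA (0.866%) and the SMAD palindrome GTCTAGAC (0.202%), matched none of the 14 windows of the 10 genes. The GC-rich SMAD element GGCGCC (19.2% of all windows) matched windows of FSTL3, INHBB, TGFBI and BMP4, and the hypoxia core ACGTG (21.4%) matched windows of TGFB2, BMP4 and SMAD7. The 3 windows also differ in base composition, with a GC content of 63.7% in FST, 43.3% in INHBA and 59.3% in GDF15, beside a median of 58.7% over all windows. None of the 8 patterns searched was found in all 3 windows.

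Of the 10 genes, 9 passed the low-count filter, and TGFB2 did not. Among the 9, 6 were called higher in si-KNSTRN cells and 1 lower, 7 in all, where 62.5% of the 12650 genes tested were called, 31.2% higher and 31.3% lower. In 8 of the 9 the libraries of the groups did not overlap, which was so for 67.3% of the genes tested. In the same 9, 3 genes, GDF15, FST and INHBA, were called higher by at least 2-fold, against 3.04% of the genes tested, while 3.40% of the genes tested and none of the 9 were called lower by at least 2-fold. The median log2 fold change was 0.41 over the 9 genes and -0.01 over all genes tested. Since the 10 genes were selected on these same differences, the counts and the median describe the selection and test nothing. In bulk RNA, fewer cells that express a gene and less RNA of it per cell cannot be told apart.

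**Figure D1:**
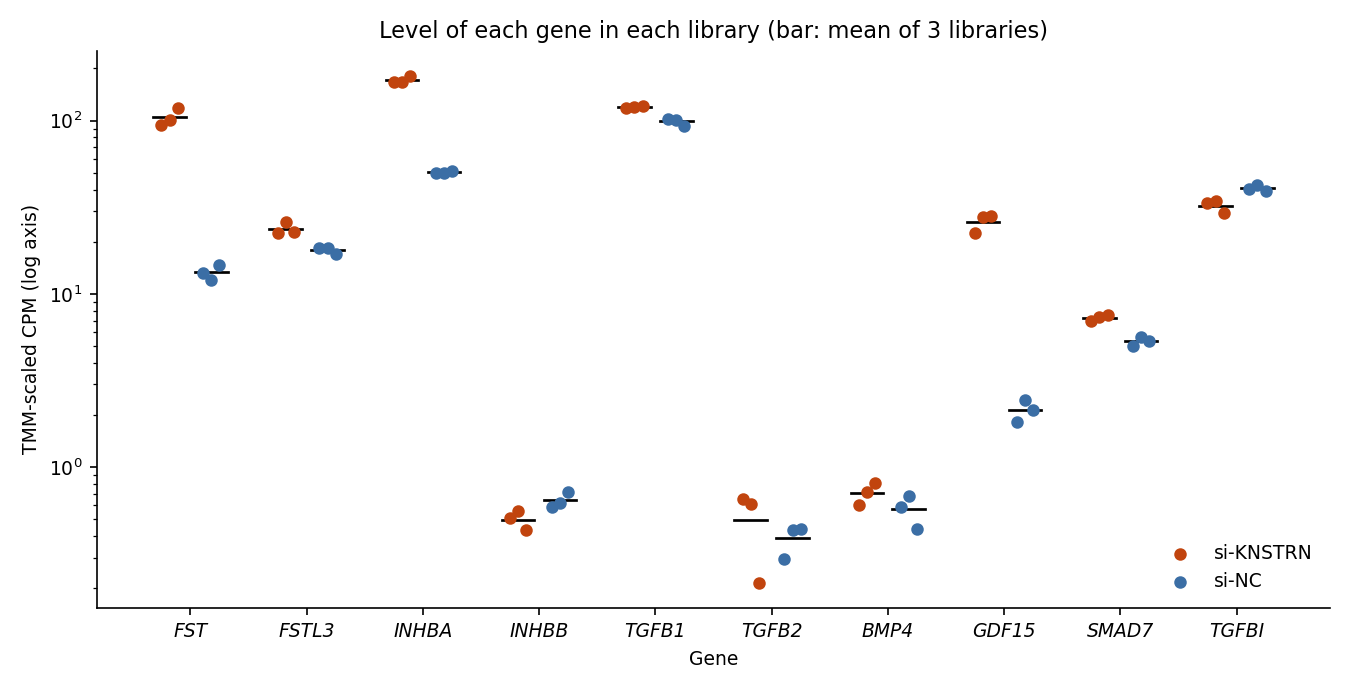
Level of each of the 10 genes in each library, in TMM-scaled CPM on a log axis, with si-KNSTRN libraries left of si-NC libraries and bars for the means of 3 libraries. FST, INHBA and GDF15 show the widest gaps between the groups, while TGFB2 and BMP4 overlap near 0.5 CPM.

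FST (chromosome 5, 53480629 to 53487134, GRCh38) encodes follistatin, a secreted protein that wraps around activin and blocks its receptor contacts. It had 1871, 1823 and 2193 reads in the 3 si-KNSTRN libraries, against 269, 193 and 266 reads in the 3 si-NC libraries. Every si-KNSTRN library lay far above every si-NC library, and the third si-KNSTRN library was the highest. The mean level was 105 ± 12.1 CPM in si-KNSTRN cells and 13.3 ± 1.31 CPM in si-NC cells (SD, n = 3 each). The log2 fold change was 2.97 (SE 0.09), or 7.84-fold. Of the 12650 genes tested, FST ranked 35 by log2 fold change from the highest.

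FSTL3 (chromosome 19, 676392 to 683385) encodes the follistatin-like protein 3, which also binds activin and lacks the heparin-binding segment of follistatin. Its reads were 443, 470 and 424 in the 3 si-KNSTRN libraries, against 372, 296 and 310 in the 3 si-NC libraries. Scaled to depth these were 22.4, 26.0 and 22.8 CPM in si-KNSTRN libraries, against 18.3, 18.4 and 17.0 CPM in si-NC libraries. The groups did not overlap, but the gap between the nearest libraries was small. On the log2 scale the fold change was 0.41 (SE 0.08), or 1.32-fold, far below that of FST.

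The 3′ UTR of FSTL3 is shown for its repeats. It is 1691 bases long in the GENCODE transcript and holds 7 copies of the word TGAGTA, which was met more often among genes called lower in these data. The first copy begins 467 bases after the stop codon and the seventh 683 bases after it. The starts of neighbouring copies lie 24 or 48 bases apart. Capitals mark the word in 30 bases around the first, the fourth and the fifth copy, and around the 1 copy in the 3′ UTR of INHBA.
FSTL3 copy 1: gtctagcctgggTGAGTAcggagggtctag
FSTL3 copy 4: atctagcctgggTGAGTAtggagggtctag
FSTL3 copy 5: gtctagcctgggTGAGTAtggagggtctag
INHBA: gggattcaaggtTGAGTAgtgtggattgtg
Copies 2 and 3 have the surroundings of copy 1, and copies 6 and 7 those of copy 5. Among the 12173 tested genes whose 3′ UTR reaches 50 bases, 20 genes, or 0.164%, hold 7 or more copies, and 3328, or 27.3%, hold at least 1. INHBB and TGFB2 also hold 1 copy each, and the other 6 of the 10 genes hold none. FSTL3 and INHBA thus carry the word and were higher in si-KNSTRN cells. The part of the word in any difference was not tested.

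INHBA (chromosome 7, 41685114 to 41705406) encodes the beta A subunit, whose homodimer is activin A. It had 3284, 3008 and 3357 reads in the 3 si-KNSTRN libraries, against 1014, 799 and 927 reads in the 3 si-NC libraries. Both groups were tight and far apart. The mean level was 171 ± 8.30 CPM in si-KNSTRN cells and 50.2 ± 0.652 CPM in si-NC cells (SD, n = 3 each). The log2 fold change was 1.77 (SE 0.05), or 3.41-fold. INHBA overlaps the antisense gene INHBA-AS1 in the RefSeq annotation, and since no source used here gives the strand setting of the counting, their reads cannot be told apart.

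INHBB (chromosome 2, 120346136 to 120351803) encodes the beta B subunit of activin B. Only 10, 10 and 8 reads were counted in the 3 si-KNSTRN libraries, against 12, 10 and 13 in the 3 si-NC libraries. All libraries were low, and the scaled levels of 0.506, 0.554 and 0.431 CPM in si-KNSTRN libraries lay just under the 0.591, 0.622 and 0.714 CPM of si-NC libraries. The log2 fold change of -0.37 had an SE of 0.33, and INHBB was not called. INHA, the alpha subunit gene that turns activin into inhibin, was as scarce, with 14, 14 and 10 reads in si-KNSTRN libraries against 22, 16 and 14 in si-NC libraries, and was not called.

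To set different genes side by side, levels were divided by transcript length in kb. On this scale the ratio of FST to INHBA was 1.37, 1.46 and 1.57 in the 3 si-KNSTRN libraries, against 0.639, 0.581 and 0.691 in the 3 si-NC libraries. Per kb, follistatin mRNA was therefore above activin beta A mRNA in every si-KNSTRN library and below it in every si-NC library. In CPM, not divided by length, INHBA lay above FST in every library of both groups. The si-KNSTRN libraries had 166, 167 and 181 CPM of INHBA, against 94.6, 101 and 118 CPM of FST. The crossing thus depends on the transcript lengths used, 6064 bases for INHBA and 2519 for FST, and a shorter INHBA transcript was not tried. The ratio of FSTL3 to INHBA was lower instead, with 0.332 ± 0.0368 in si-KNSTRN cells and 0.852 ± 0.0474 in si-NC cells (SD, n = 3 each). The FST share of the summed FST and FSTL3 level was 81.5% ± 2.18 in si-KNSTRN cells and 42.8% ± 3.40 in si-NC cells. Both antagonists together over both beta subunits gave 1.79 ± 0.0947 in si-KNSTRN cells and 1.45 ± 0.0249 in si-NC cells, a smaller difference than in either of the ratios above. INHBA made up 99.5% ± 0.0905 of the beta subunit level in si-KNSTRN cells and 97.6% ± 0.202 in si-NC cells. These ratios are of mRNA per length, and they rest on 1 transcript per gene.

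**Figure D2:**
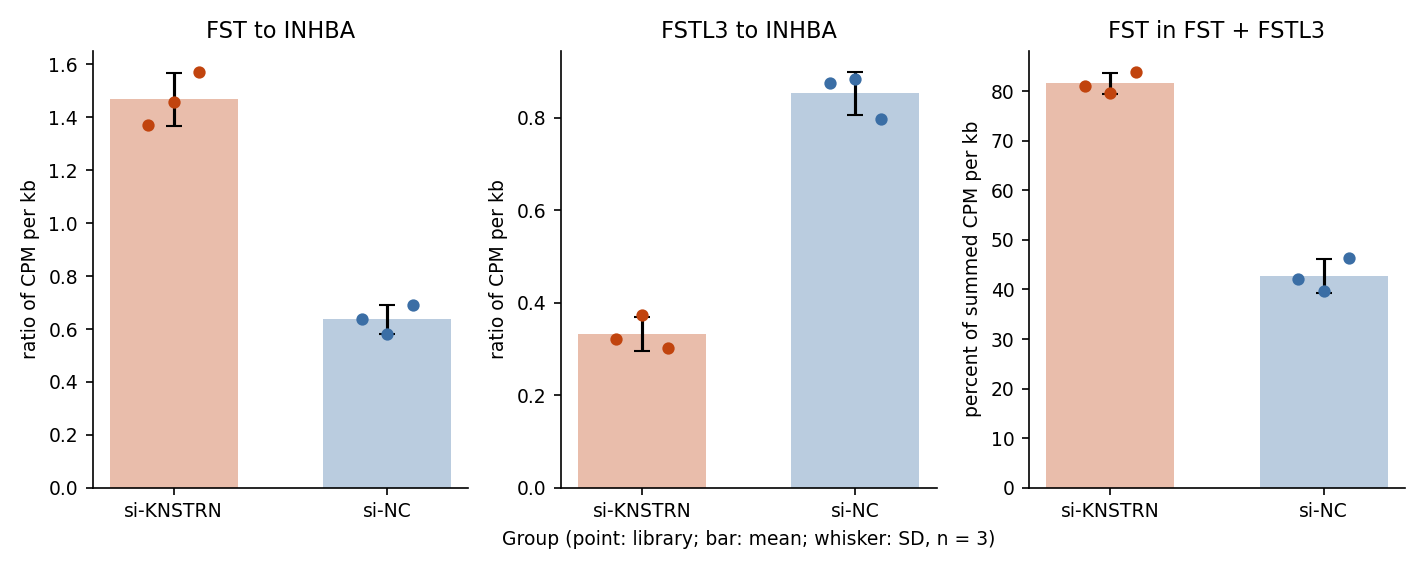
Ratios of levels per kb of transcript in single libraries (points), with means (bars) and SD (whiskers, n = 3), for FST over INHBA, FSTL3 over INHBA, and FST as a percent of FST plus FSTL3. The FST to INHBA ratio averaged 1.47 in si-KNSTRN cells and 0.637 in si-NC cells, while FSTL3 to INHBA averaged 0.332 and 0.852 in that order of groups.

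GDF15 (chromosome 19, 18386158 to 18389176) encodes growth differentiation factor 15, a stress-induced ligand that signals through GFRAL and not through the classical TGF-beta receptors. It had 441, 499 and 522 reads in the 3 si-KNSTRN libraries, against 37, 39 and 39 reads in the 3 si-NC libraries. Scaled to depth, these were 22.3, 27.7 and 28.1 CPM in si-KNSTRN libraries, against 1.82, 2.43 and 2.14 CPM in si-NC libraries. Every si-KNSTRN library lay far above every si-NC library, and the first library was the lowest of its group in both. The mean level was 26.0 ± 3.23 CPM in si-KNSTRN cells and 2.13 ± 0.302 CPM in si-NC cells (SD, n = 3 each). The log2 fold change was 3.62 (SE 0.13), or 12.3-fold, rank 20 of 12650 from the highest. GFRAL itself had no read in any library. The microRNA gene MIR3189 lies within GDF15, and reads of its precursor would not be told from those of GDF15.

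Of 9 genes known to induce or accompany GDF15, all were tested, and 6 rose, 2 fell and 1 was not called, with a median log2 fold change of 0.34. CDKN1A, which encodes the cell cycle inhibitor p21, rose to 73.5 ± 10.7 CPM in si-KNSTRN cells, against 14.2 ± 1.23 CPM in si-NC cells, a log2 fold change of 2.36 (SE 0.10, edgeR adjusted p = 7.9e-12). EGR1, an immediate early transcription factor, rose to 13.5 ± 0.950 CPM, against 5.34 ± 1.23 CPM in si-NC cells (edgeR adjusted p = 2.4e-07). TRIB3, a pseudokinase of the integrated stress response, rose with a log2 fold change of 0.55 (edgeR adjusted p = 5.6e-06). ATF4, the transcription factor of the integrated stress response that is controlled mainly at translation, fell to 230.3 ± 10.5 CPM in si-KNSTRN cells, against 338 ± 10.8 CPM in si-NC cells (log2 fold change -0.55, edgeR adjusted p = 4.5e-08). Of the 50-base windows of ATF4, 22.9% also occur in another gene, so that its reads may be shared.

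TGFB1 (chromosome 19, 41330323 to 41353922) encodes TGF-beta 1, which is made as a latent complex. It had 2348, 2148 and 2258 reads in the 3 si-KNSTRN libraries, against 2082, 1631 and 1684 reads in the 3 si-NC libraries. Scaled levels were 119, 119 and 122 CPM in si-KNSTRN libraries, against 103, 101 and 92.5 CPM in si-NC libraries. The groups did not overlap, and the si-KNSTRN libraries were nearly alike. This gave a log2 fold change of 0.28 (SE 0.05), or 1.21-fold.

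TGFB2 (chromosome 1, 218345336 to 218444619) encodes TGF-beta 2 and was close to the limit of detection. It had 13, 11 and 4 reads in the 3 si-KNSTRN libraries, against 6, 7 and 8 in the 3 si-NC libraries. The si-KNSTRN libraries spanned the si-NC libraries on both sides, and without the low-count filter the log2 fold change was 0.36 (SE 0.45). TGFB2 overlaps the antisense gene TGFB2-AS1 and shares 26.9% of its 50-base windows with TGFB2-OT1. TGFB3, the third isoform gene and not one of the 10, had 32, 20 and 21 reads in si-KNSTRN libraries, against 23, 31 and 30 in si-NC libraries, and was not called. Per kb of transcript, TGFB1 made up 98.6% ± 0.344 of the level of the 3 isoforms in si-KNSTRN cells and 98.1% ± 0.504 in si-NC cells (SD, n = 3 each). TGFB2 made up 0.227% ± 0.113 in si-KNSTRN cells and 0.217% ± 0.0523 in si-NC cells, and TGFB3 1.16% ± 0.266 and 1.72% ± 0.455 in that order of groups. The shares of the isoforms overlapped between the groups, and TGF-beta mRNA in both was almost wholly that of TGFB1.

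BMP4 (chromosome 14, 53949736 to 53956891) encodes a bone morphogenetic protein and was also scarce. It had 12, 13 and 15 reads in the 3 si-KNSTRN libraries, against 12, 11 and 8 in the 3 si-NC libraries. The groups overlapped, the log2 fold change of 0.32 had an SE of 0.32, and BMP4 was not called. Its value was 0.16 without si-NC library 3.

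SMAD7 (chromosome 18, 48919853 to 48950965) encodes an inhibitory SMAD that TGF-beta itself induces and that brings ubiquitin ligases to the receptors. It had 138, 132 and 141 reads in the 3 si-KNSTRN libraries, against 102, 91 and 97 in the 3 si-NC libraries. No library of one group reached the other, with 7.29 ± 0.307 CPM in si-KNSTRN cells and 5.34 ± 0.318 CPM in si-NC cells (SD, n = 3 each). Its log2 fold change was 0.45 (SE 0.11), or 1.37-fold.

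TGFBI (chromosome 5, 136028988 to 136063818) encodes a matrix protein named for its induction by TGF-beta, and it was the 1 gene of the 10 called lower. It had 657, 616 and 542 reads in the 3 si-KNSTRN libraries, against 822, 685 and 717 in the 3 si-NC libraries. Scaled levels were 33.2, 34.1 and 29.2 CPM in si-KNSTRN libraries, all below the 40.5, 42.6 and 39.4 CPM of si-NC libraries. This gave a log2 fold change of -0.34 (SE 0.07). TGFBI and SMAD7, both known as TGF-beta targets, thus lay on opposite sides of 0.

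**Figure D3:**
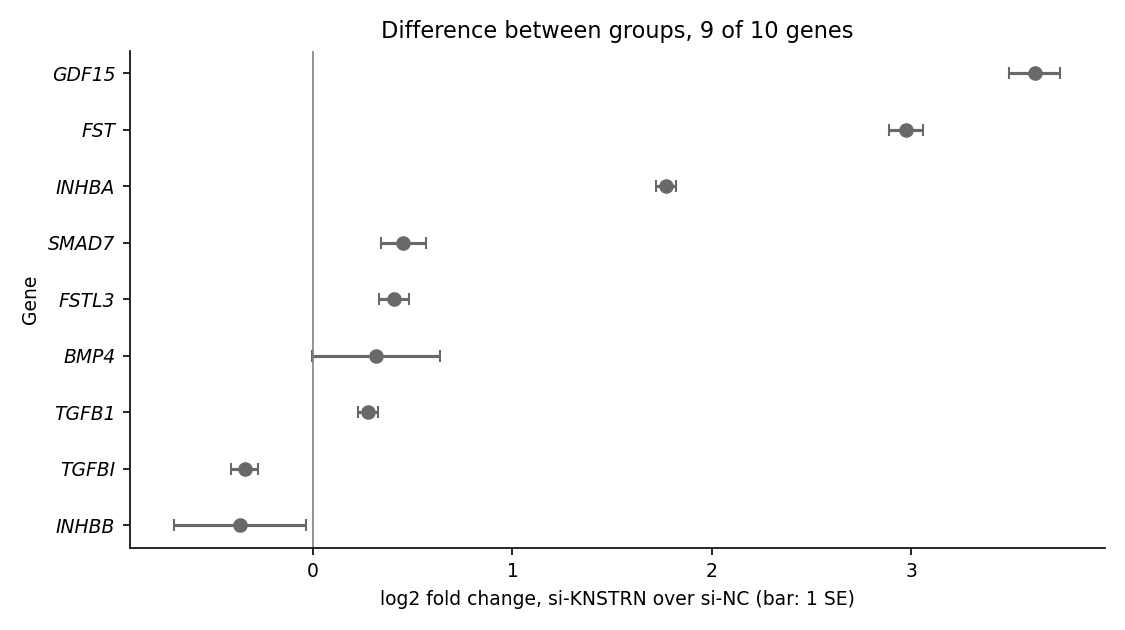
Log2 fold change of si-KNSTRN over si-NC for the 9 genes that passed the low-count filter (points), with 1 standard error on either side (bars). GDF15, FST and INHBA stand at 3.62, 2.97 and 1.77, and the other 6 lie between -0.37 and 0.45.

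The order of the 10 genes by level per kb differed between the groups. In si-KNSTRN cells TGFB1 stood at 43.3 ± 0.563 CPM per kb, FST at 41.5 ± 4.81, INHBA at 28.2 ± 1.37 and GDF15 at 21.7 ± 2.69, followed by TGFBI at 11.5 ± 0.940 and FSTL3 at 9.35 ± 0.784 CPM per kb. TGFB1 and FST did not differ beyond the spread of FST there. In si-NC cells TGFB1 stood at 35.7 ± 1.99 CPM per kb, TGFBI at 14.6 ± 0.582, INHBA at 8.28 ± 0.107, FSTL3 at 7.05 ± 0.304, FST at 5.28 ± 0.518 and GDF15 at 1.78 ± 0.251 CPM per kb. SMAD7 followed with 1.65 ± 0.0693 CPM per kb in si-KNSTRN cells and 1.21 ± 0.0718 in si-NC cells. BMP4, INHBB and TGFB2 stayed under 0.5 CPM per kb in every library.

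Beyond these 10, 141 other genes of the pathway were listed, of which 87 were tested. Of the 87, 37 rose, 27 fell and 23 were not called, with a median log2 fold change of 0.04. Of all genes tested, 3946 were called higher, 3959 lower and 4745 neither. Lists of the pathway share some genes, and each gene counts once in these 87.

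Of 27 other ligand genes, 6 were tested, and 2 rose, 1 fell and 3 were not called. BMP2, a bone morphogenetic protein, had 111, 81 and 127 reads in the 3 si-KNSTRN libraries, against 43, 29 and 37 in the 3 si-NC libraries, and rose with a log2 fold change of 1.50 (SE 0.17, edgeR adjusted p = 1.4e-06). BMP6, another member of that family, had 36, 28 and 37 reads in si-KNSTRN libraries, against 6, 6 and 9 in si-NC libraries, and rose with a log2 fold change of 2.20 (SE 0.28, edgeR adjusted p = 4.3e-06). Per kb of transcript BMP2 stood at 1.57 ± 0.326 CPM per kb in si-KNSTRN cells and 0.551 ± 0.0452 in si-NC cells (SD, n = 3 each), above the level of BMP4 in both groups. BMP6 overlaps TXNDC5 in the RefSeq annotation, so that reads may be shared. AMH, the anti-Müllerian hormone gene, fell by 0.27 on the log2 scale (edgeR adjusted p = 0.022), with overlapping groups. Its call was lost without si-KNSTRN library 1 (adjusted p = 0.066 by edgeR), si-KNSTRN library 2 (0.059), si-NC library 1 (0.070) or si-NC library 2 (0.13).

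Of 19 other secreted antagonist genes, 6 were tested, and 4 rose and 2 fell. The BMP antagonist genes CHRDL1 and NOG, which encode chordin-like 1 and noggin, both fell by 0.66 on the log2 scale (edgeR adjusted p = 2.1e-07 and 1.2e-05). NOG averaged 14.5 ± 1.62 CPM in si-KNSTRN cells and 22.9 ± 2.29 CPM in si-NC cells. BMPER, a secreted modulator of BMP, rose with a log2 fold change of 0.77 (edgeR adjusted p = 0.00045), and FSTL1, a glycoprotein related in name to follistatin, rose with 0.27 (edgeR adjusted p = 0.00013).

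Of 20 genes of latency, processing and activation, 13 were tested, and 2 rose, 9 fell and 2 were not called, with a median log2 fold change of -0.43. LTBP3 and LTBP4 encode proteins that tether latent TGF-beta to the matrix, and LTBP2 encodes a relative found on microfibrils. LTBP2 fell to 162 ± 5.35 CPM in si-KNSTRN cells, against 306 ± 10.2 CPM in si-NC cells (log2 fold change -0.92, edgeR adjusted p = 8.8e-11). LTBP3 and LTBP4 fell by 0.86 and 0.73 on the log2 scale (edgeR adjusted p = 1.5e-09 and 4.2e-09), while LTBP1 was not called. THBS1, a matrix protein that activates latent TGF-beta, fell to 19.3 ± 0.617 CPM in si-KNSTRN cells, against 41.4 ± 1.66 CPM in si-NC cells (log2 fold change -1.10, edgeR adjusted p = 6.1e-10). ITGB8, the beta chain of an integrin that activates latent TGF-beta, fell to 11.1 ± 1.08 CPM in si-KNSTRN cells, against 23.7 ± 0.674 CPM in si-NC cells (log2 fold change -1.09, edgeR adjusted p = 1.1e-08). The 2 genes that rose were NRROS and FURIN. NRROS, which anchors latent TGF-beta on myeloid cells, had 31, 29 and 41 reads in si-KNSTRN libraries against 8, 3 and 9 in si-NC libraries (log2 fold change 2.27, edgeR adjusted p = 9.6e-06). FURIN, a protease that cuts the TGF-beta precursor and was named after its values were seen, rose to 143 ± 10.5 CPM in si-KNSTRN cells, against 84.0 ± 2.05 CPM in si-NC cells (edgeR adjusted p = 4.4e-09). In the RefSeq annotation THBS1 overlaps FSIP1, and reads of THBS1 and LTBP3 may be shared with overlapping genes.

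**Figure D4:**
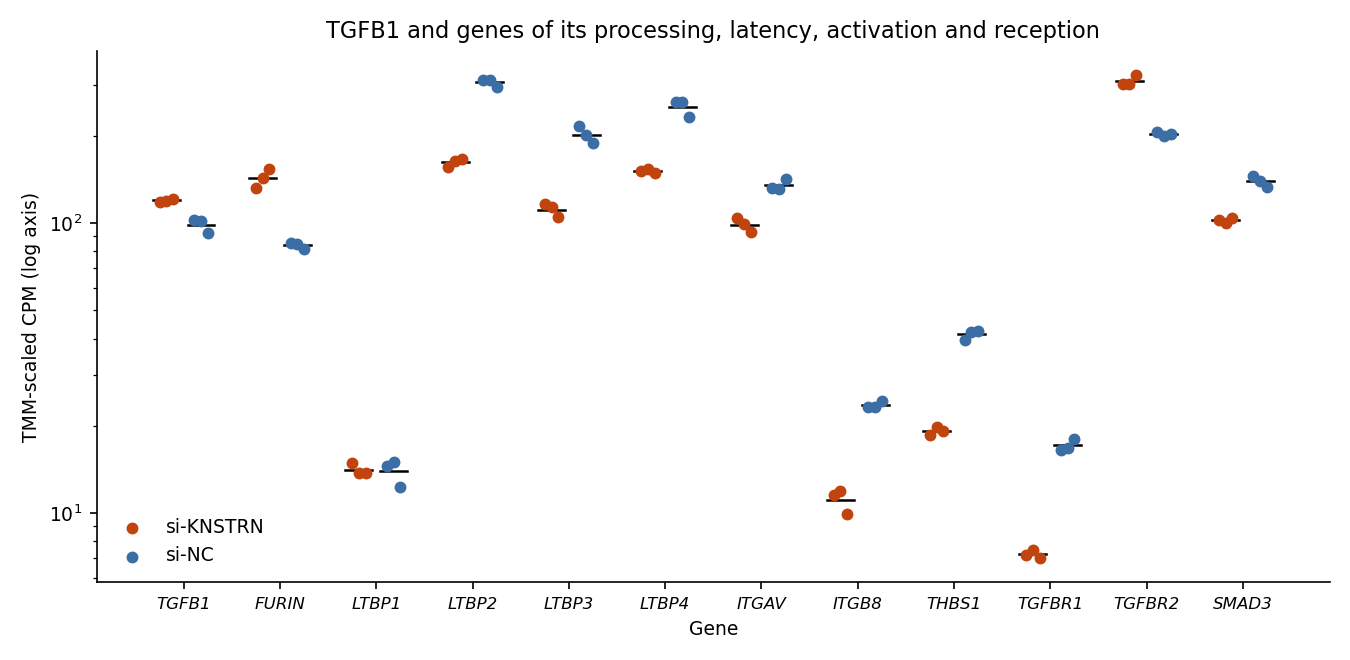
Level in each library, in TMM-scaled CPM on a log axis, of TGFB1 and of 11 genes of its processing, latency, activation and reception, with si-KNSTRN libraries left of si-NC libraries and bars for means of 3 libraries. TGFB1, FURIN and TGFBR2 lie higher in si-KNSTRN libraries, LTBP2, LTBP3, LTBP4, ITGAV, ITGB8, THBS1, TGFBR1 and SMAD3 lower, and LTBP1 overlaps.

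Of 20 receptor and co-receptor genes, 13 were tested, and 7 rose, 2 fell and 4 were not called, with a median log2 fold change of 0.26. The pair that binds TGF-beta moved in opposite directions. TGFBR1, the type I receptor, had 142, 135 and 130 reads in the 3 si-KNSTRN libraries, against 336, 270 and 329 in the 3 si-NC libraries, and fell by 1.25 on the log2 scale (SE 0.09, edgeR adjusted p = 4.6e-09). TGFBR2, the type II receptor, rose to 309 ± 13.4 CPM in si-KNSTRN cells, against 203 ± 3.49 CPM in si-NC cells (log2 fold change 0.60, edgeR adjusted p = 1.1e-08), and overlaps the gene LOC105377015. ENG, the co-receptor endoglin, rose with 0.44 on the log2 scale (edgeR adjusted p = 1.1e-06). Among BMP receptors, ACVR1 rose with a log2 fold change of 0.81 (edgeR adjusted p = 2.6e-09). BMPR1B had 34, 44 and 44 reads in si-KNSTRN libraries against 9, 9 and 10 in si-NC libraries, and rose with 2.06 (edgeR adjusted p = 3.3e-06). BMPR2, the type II receptor of BMPs, named after its values were seen, fell to 44.1 ± 3.03 CPM in si-KNSTRN cells, against 52.5 ± 2.34 CPM in si-NC cells (log2 fold change -0.25, edgeR adjusted p = 0.0019). BMPR1A, a BMP type I receptor gene also named after its values were seen, rose with 0.26 (edgeR adjusted p = 0.00014). The activin receptor genes ACVR1B, ACVR2A and ACVR2B were not called. ACVR2A averaged 6.24 ± 0.157 CPM in si-KNSTRN cells and 6.26 ± 0.393 CPM in si-NC cells, and ACVR1B 19.5 ± 2.28 and 17.6 ± 0.837 CPM in that order of groups. ACVR2B averaged 2.90 ± 0.687 CPM in si-KNSTRN cells and 2.93 ± 0.323 CPM in si-NC cells.

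Of 22 genes of SMADs and their regulators, 21 were tested, and 6 rose, 6 fell and 9 were not called, with a median log2 fold change of -0.07. SMAD3, an effector of activin and TGF-beta, fell to 102 ± 1.99 CPM in si-KNSTRN cells, against 139 ± 6.00 CPM in si-NC cells (log2 fold change -0.45, edgeR adjusted p = 4.5e-07). SMAD2, the other effector of these ligands, was not called, with 58.8 ± 4.03 CPM in si-KNSTRN cells and 57.6 ± 2.61 CPM in si-NC cells. SMURF2, a ubiquitin ligase that SMAD7 brings to receptors, rose with 0.50 on the log2 scale (edgeR adjusted p = 1.1e-07). STRAP, a receptor-associated partner of SMAD7, rose with 0.44 (edgeR adjusted p = 2.3e-07), and ZFYVE9, which presents SMADs to the receptor, with 0.49 (edgeR adjusted p = 8.3e-07). ZFYVE9 overlaps the gene LOC107984956.

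Of 22 TGF-beta and activin target genes, 17 were tested, and 6 rose, 8 fell and 3 were not called, with a median log2 fold change of -0.07. CCN2, a matricellular growth factor, rose to 72.7 ± 1.68 CPM in si-KNSTRN cells, against 41.9 ± 3.46 CPM in si-NC cells (log2 fold change 0.79, edgeR adjusted p = 6.8e-09). THBS1 and LTBP2, which fell, stand in this list too. The tested targets moved in both directions, as did all genes tested, of which 31.2% were called higher and 31.3% lower.

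Of 14 BMP target genes, 10 were tested, and 5 rose, 1 fell and 4 were not called, with a median log2 fold change of 0.45. MSX1, a homeobox gene, rose with a log2 fold change of 1.03 (edgeR adjusted p = 1.7e-07), HEY1, a repressor of the Hairy family, with 0.89 (edgeR adjusted p = 1.0e-05), and ID3, an inhibitor of differentiation factors, with 0.40 (edgeR adjusted p = 0.00019). The gene that fell was NOG. ID1, which has the highest level per kb among the BMP targets named here, was not called, with 149.6 ± 13.7 CPM in si-KNSTRN cells and 136 ± 6.24 CPM in si-NC cells.

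**Figure D5:**
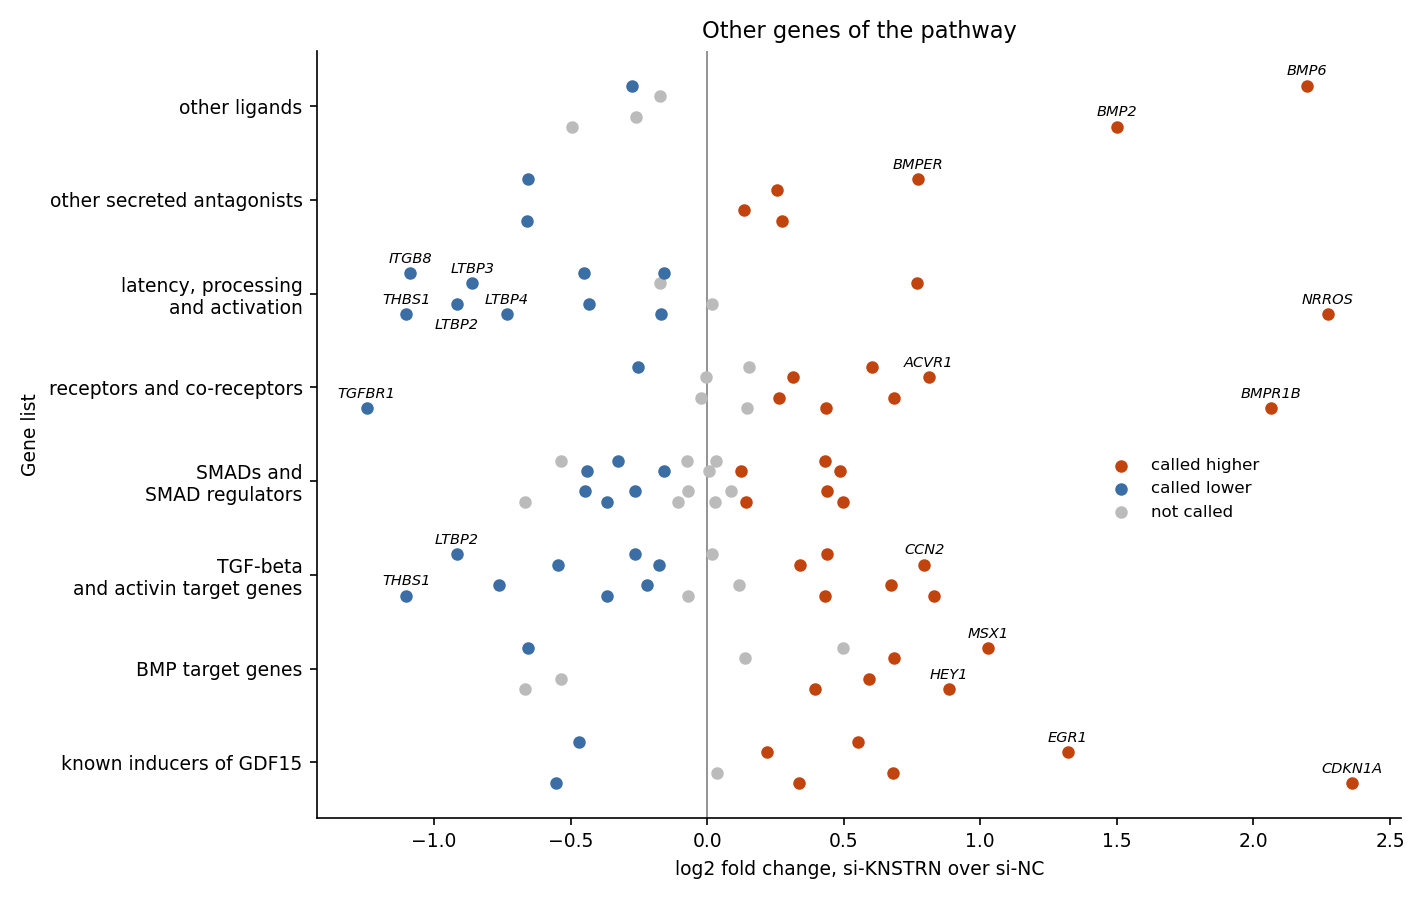
Log2 fold change of si-KNSTRN over si-NC for the tested genes of 8 pathway lists, 1 point per gene, coloured by the edgeR call. In the list of latency, processing and activation 9 of 13 tested genes were called lower, and 5 of 10 tested BMP target genes were called higher. Over all genes tested, 31.2% were called higher and 31.3% lower.

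The word TGAGTA in the 3′ UTR was unevenly spread over these calls. No reason for this word from outside these data is given here, so its shares are a description and not a test. It occurred in 19.4% of all genes called higher, 35.6% of those called lower and 27.1% of those not called. Among the other pathway genes it occurred in 9 of 37 that rose (24.3%), in 13 of 27 that fell (48.1%) and in 10 of 23 that were not called (43.5%), or 36.8% of the 87. The 13 include TGFBR1, THBS1, ITGB8, ITGAV, CHRDL1, SMAD4 and SMAD5, but not LTBP2, LTBP3, LTBP4, NOG or SMAD3, where ITGAV, SMAD4 and SMAD5 are named after their values were seen. Without genes that hold it, 28 other pathway genes were called higher and 14 lower. The 3′ UTRs of TGFBR1, THBS1, ITGB8, ITGAV, CHRDL1, SMAD4 and SMAD5 are 4887, 4097, 5757, 3609, 986, 6572 and 5252 bases long. Those of LTBP2, LTBP3, LTBP4, NOG and SMAD3 are 2714, 262, 73, 668 and 4659 bases long. A longer 3′ UTR has more room for the word, and the shares above were not adjusted for length. The part of the word in these falls was not tested.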

How the data were processed

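The authors deposited raw read counts per gene, whole numbers for 3 si-KNSTRN and 3 si-NC libraries of total RNA. The build was GRCh38 and the tools were HISAT2 2.0.1, featureCounts, fastp 0.20.0 and FastQC 0.11.5, per the submitters' processing notes. No source used here gives the strand setting, the treatment of multiply aligned reads or the annotation release. Of 20442 genes, 3984 had no read. Replicate pairs differed by a chi-square per degree of freedom of 2.16 to 10.3, so that none was merged. Intervals from 0 counts cover counting error only.

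All genes that passed filterByExpr (minimum count 10) in edgeR 4.0.16 (R 4.3.3), 12650 in all, entered 1 two-sided quasi-likelihood test with TMM scaling. P-values were adjusted by Benjamini-Hochberg over all of them and called under 0.05. Each SE is the absolute log2 fold change divided by the square root of the quasi-likelihood F statistic. The test was tested on simulated counts. The common biological coefficient of variation was 5.47%, and the first principal component, with 78.7% of the variance, separated the groups.

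The 10 genes, the pathway lists, which share some genes, and the tests were chosen with earlier results of these data known. Named beside them were KNSTRN, in each list the 4 called genes with the smallest p, and called genes with an absolute log2 fold change of at least 1. Some genes that this rule names are not reported here. Gene coordinates and promoters are RefSeq GRCh38. Transcript lengths and 3′ UTRs came from GENCODE release 29, 1 coding transcript per gene, found for 19162 symbols, 396 of them through a synonym. Python 3.11.15, numpy 2.4.6, pandas 2.3.3 and matplotlib 3.10.9 were used for summaries and figures. Alternatives were 3 other scalings, DESeq2 1.42.0, limma-voom (limma 3.58.1), other low-count filters, a threshold of 0.01, the longest transcript, a replicate block and each library left out. Counts that leave out genes with TGAGTA in the 3′ UTR were added after seeing the data.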

Additional observations from a re-analysis of the deposited data

How the results depend on the processing

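All 124 log2 fold changes of the 9 fitted genes under the alternatives kept their direction and moved by less than 1 SD between replicates. Leaving out 1 library can hardly move a group mean by the SD of that group. For those alternatives the comparison with the SD was therefore nearly fixed beforehand and says little. They ran from 2.87 to 3.04 for FST, 3.51 to 3.72 for GDF15, 1.73 to 1.81 for INHBA, 0.34 to 0.45 for FSTL3, 0.23 to 0.31 for TGFB1, 0.41 to 0.49 for SMAD7 and -0.39 to -0.28 for TGFBI. They ran from -0.44 to -0.27 for INHBB and from 0.16 to 0.45 for BMP4, and neither gave a value under the filter of CPM of at least 1. Of 448 values for 32 other named genes, 444 kept their call, and the 4 that lost it are those of AMH. The split of calls over all genes moved with scaling, to 4339 higher and 3577 lower with library size alone and to 3489 higher and 4450 lower with upper-quartile factors. Leaving out 1 library at a time left 3624 to 3842 genes called higher and 3597 to 3859 lower, and 34 to 37 other pathway genes higher and 23 to 28 lower. With genes left out whose 3′ UTR holds TGAGTA, an alternative chosen after seeing the data, 2598 genes and 14 other pathway genes were called lower, since fewer genes are counted. Libraries with the same replicate number did not deviate together (correlations of -0.06 to 0.05, and 2 of 6 libraries correlated best with their own number), so that the numbers do not pair them. With the replicate number as a block, 3831 genes were called higher and 3857 lower, and 36 and 26 other pathway genes. INHBB, TGFB2 and BMP4 had at most 15 reads in any library. In the main fit the standard errors of INHBB and BMP4 were 0.33 and 0.32 on the log2 scale. Without the low-count filter they were 0.37 for INHBB, 0.45 for TGFB2 and 0.35 for BMP4.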
